A study of Tripsacum dactyloides with 133 samples.

Results

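Pairs of eastern gamagrass (Tripsacum dactyloides) genes that share a single maize counterpart were compared with each other in crown roots, the roots that arise at the base of the shoot. The deposited orthologue table groups gamagrass and maize genes that are held to descend from a common ancestral gene. Of its 21658 groups, 2718 held exactly 2 gamagrass genes and 1 maize gene. The 150 of these with the highest summed level were taken, which gave 300 genes out of the 45865 in the count table. The level was the mean CPM (the count divided by the total of its library, times 1e6) over the plants with a live inoculum. The pairs were thus chosen by these same levels, and their high levels describe the choice. The last 2 pairs inside the limit summed to 147.8 and 146.5 CPM, and the first 2 outside it to 146.4 and 145.7 CPM. In each pair the gene with the higher mean is called copy 1 and the other copy 2. The word copy follows the orthologue table only, because 81 of the 150 pairs were overlapping gene models at the same place in the genome and 69 were genes at separate positions.

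All plants were of the cultivar Pete and were grown in a growth chamber, 1 plant per library, and were either droughted or kept well-watered. The libraries came from plants with a live inoculum (63 drought, 62 well-watered) and from 8 with a mock inoculum (4 and 4). The live inocula traced back to the Kansas sites CWR, WEL, SVR and TRI, and were conditioned under drought stress (62 plants) or ample water (63), with gamagrass as host (63) or with no host (62). SVR and TRI were taken as the low-precipitation legacy and CWR and WEL as the high-precipitation legacy after the study, since the labels give only the site. Plant age was not given in the labels. By design, droughted and well-watered plants shared conditioning pots, and the labels do not say which plants did. The number ranges of droughted and well-watered plants in the labels did not overlap, so that plant number and watering cannot be told apart. Live libraries held 13.6 to 64.2 M counts (M stands for mega) in drought and 1.14 to 69.4 M in well-watered plants, with means of 52.1 M ± 8.75 (SD, n = 63) and 32.3 M ± 17.7 (SD, n = 62), and 1 mock well-watered library held only 6045 counts, in which 1 count equals 165 CPM. The 300 genes took 3.87% ± 0.225 (SD, n = 63) of the counts in drought and 3.96% ± 0.222 (SD, n = 62) in well-watered plants. Each library pools the cells of a root, so fewer cells that use a gene and less RNA per cell cannot be told apart. The files give no gene names or functions, so that pairs are named by identifier and the tissue could not be checked against marker genes.

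Gamagrass and maize descend from a common ancestor whose whole genome was duplicated, and both have since lost many of the extra genes. A gene kept as a pair on different chromosomes in gamagrass and as a single gene in maize can be such a remnant that maize no longer has. Genes can also be copied locally, which leaves the new gene beside the old. After duplication, copies can keep similar levels, divide the work between tissues or conditions, or fall silent in part or in full. An automatic gene annotation adds a further kind of pair, in which a locus is described by gene models that overlap, often on opposite strands.

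The position of the copies was the first thing that separated the pairs. Overlapping pairs made up 54% of the 150, against 42.6% of all 2718 pairs of the class (1158 pairs). Pairs on different chromosomes made up 36.7% (55 pairs), against 46% in the class. This group includes, throughout, 4 pairs (100 in the class) with a copy on an unplaced scaffold. The chromosome of such a scaffold is not known, so these pairs are not shown to lie on different chromosomes. Near pairs, with a gap of at most 100 kb, numbered 9 (6%, against 5.26%), and 5 pairs lay farther apart on the same chromosome (3.33%, against 6.11%). These shares are a description, since the choice by level can itself favour a position.

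**Figure D1:**
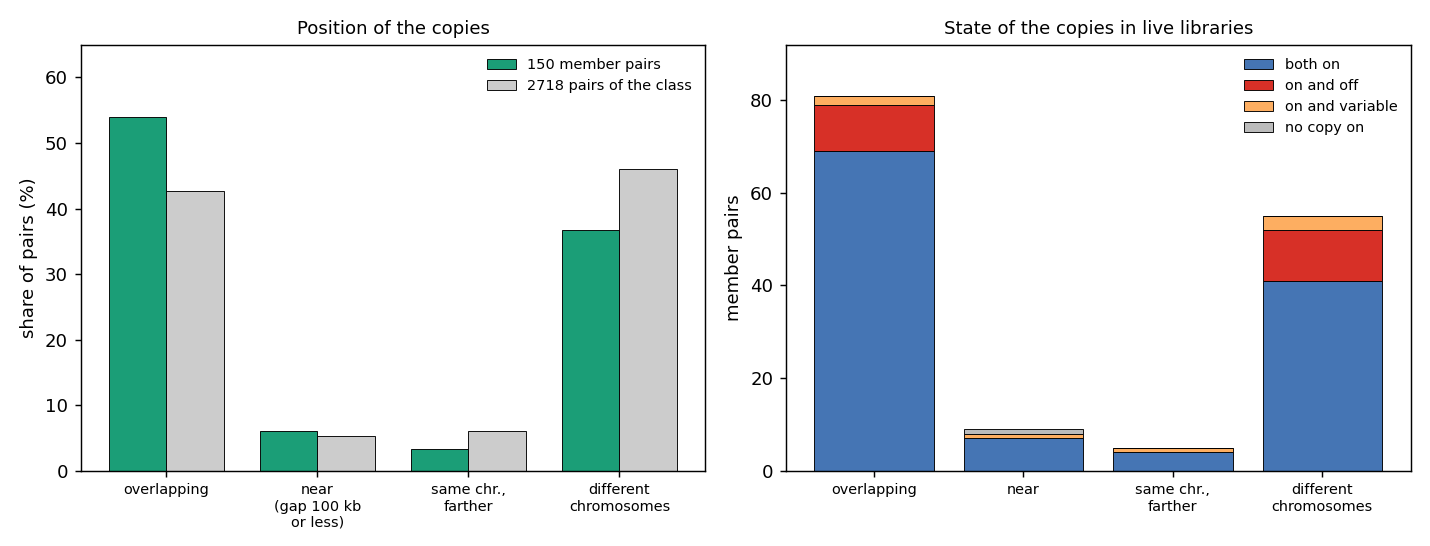
Left, share of pairs (%) by the position of their copies, for the 150 pairs taken and for all 2718 pairs of the class. Right, number of the 150 pairs by position and by the state of their copies in the live libraries (on, at least 1 CPM in 90% of libraries or more; off, in 10% or fewer); all 11 pairs at separate positions with an on and an off copy lie on different chromosomes.

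Of the 81 overlapping pairs, 67 lay on opposite strands and 14 on the same strand. The shorter gene lay wholly inside the longer in 52 pairs, and in 78 at least 90% of the shorter gene was shared. In 32 pairs at least 90% of both genes was shared. The authors' counting used no strand and split a read in a shared region equally among the genes there, so the 2 counts of such a pair are in large part the same reads divided by 2. The counts bore this mark. In 28 of the 81 pairs both genes had exactly equal counts in at least 63 of the live libraries, and the median absolute log2 ratio of the 2 levels was 0.03. Values that are not whole numbers made up 27.1 to 86.5% of the values of copy 1 over libraries (median 53.4%). They are no mark of overlap alone, since they also made up 36.1 to 55.6% in near pairs (median 45.1%), whose copies share no region.

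The overlapping genes Td00002ba037155 and Td00002ba037156 (maize Zm00001eb281130) show this at its extreme. They span chromosome 13 from 56535241 to 56592201 on the plus strand and from 56535256 to 56592170 on the minus strand, in the coordinates of the authors' gamagrass annotation. Both had identical counts in all live plants, with a lowest, median and highest level of 33.3, 64.5 and 94.8 CPM in drought and 45.9, 80.4 and 167 CPM in well-watered plants. The 2 overlapping pairs with the highest summed level behaved nearly alike. For Td00002ba007215 and Td00002ba007216 (Zm00001eb162210, chromosome 2), copy 1 held 50% to 50.05% of the pair's count in every plant, at median levels of 441.7 CPM in drought and 529 CPM in well-watered plants. For Td00002ba022516 and Td00002ba022515 (Zm00001eb231250, chromosome 7), the share of copy 1 ran from 50% to 51.6%. In the pairs of this kind the files hold the level of a locus rather than of each gene. In contrast, 20 of the 81 overlapping pairs were at least 10-fold apart in CPM. In Td00002ba012748 and Td00002ba012749 (Zm00001eb299970, chromosome 3), a gene of 578 bp lay inside a gene of 21891 bp on the same strand. The longer gene had 208.5, 426 and 691 CPM (lowest, median, highest) in drought and 219.8, 545 and 869 CPM in well-watered plants, whereas the shorter had no count in 114 of the live plants and never exceeded 0.199 CPM. Because of the shared reads, the levels of overlapping pairs are given apart from those of the 69 separate pairs throughout.

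The 55 pairs on different chromosomes did not spread evenly over the genome. Class pairs occurred on 144 combinations of chromosomes, and 11 of these held at least 30 pairs each. Those 11 combinations held 740 of the 1251 class pairs on different chromosomes (59.2%) and 42 of the 55 pairs taken (76.4%). Chromosomes 2 and 6 shared 12 of the pairs (106 of the class), chromosomes 3 and 5 shared 6 (84), chromosomes 8 and 15 shared 5 (77) and chromosomes 12 and 16 shared 4 (55). Unplaced scaffolds took part as well, and 3 of the pairs (52 of the class) joined chromosome 13 with the scaffold labelled scaf_66. In all, 4 of the 55 pairs had a copy on an unplaced scaffold, and their copies were close in level, with an absolute log2 ratio of 0.0080 to 0.20. The median over the other 51 pairs on different chromosomes was 1.92. The same held in the class, where the median was 0.21 for the 100 pairs with a scaffold copy and 2.79 for the rest. The part of reads that fit both copies in this closeness was not tested.

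The copies at separate positions differed widely in level. On the log2 scale with 0.01 CPM added to both means, the median absolute ratio of the 69 pairs was 1.38, with quartiles of 0.31 and 4.10. The class median at separate positions was 2.16. Copies were less than 2-fold apart in 28 of the 69 pairs and at least 10-fold apart in 18, and in 17 copy 2 held less than 5% of the summed level. Near pairs were closest in level, with a median of 0.46 (n = 9), followed by the pairs farther apart on a chromosome with 1.31 (n = 5) and the pairs on different chromosomes with 1.84 (n = 55). No test was made of this order, since level chose the pairs. Scaling to gene length hardly moved it. Per kb of gene span, introns included, the median of the 69 pairs was again 1.38, and copy 2 became the higher in 5 of them. In overlapping pairs the same scaling made copy 2 the higher in 50 of 81.

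**Figure D2:**
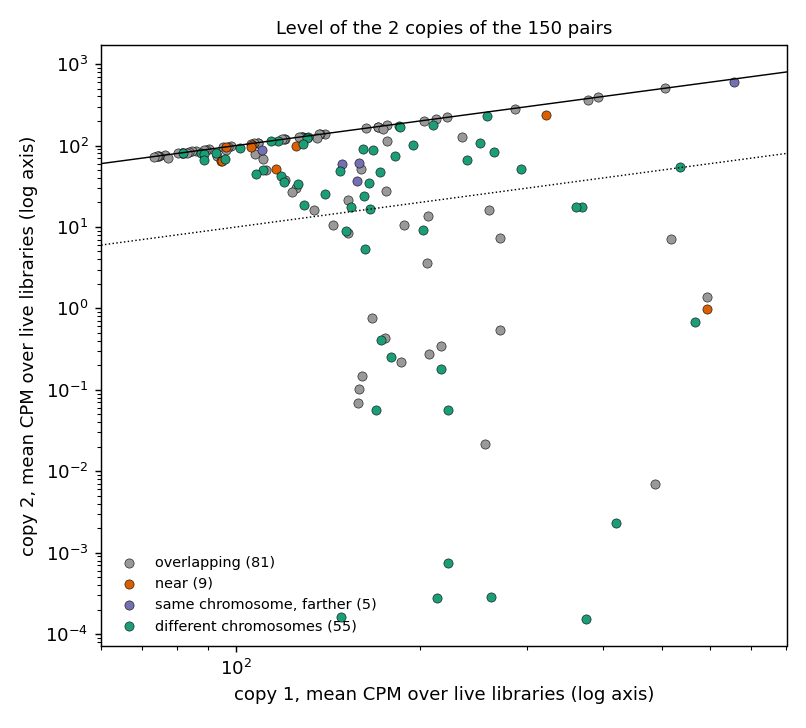
Mean CPM of copy 2 against mean CPM of copy 1 over the live libraries for the 150 pairs, coloured by position (both axes logarithmic; solid line, equal levels; dotted line, copy 2 10-fold lower). Most overlapping pairs crowd the solid line, and 20 of the 81 overlapping and 18 of the 69 separate pairs lie at or below the dotted line.

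The copy that was higher on average was higher in most plants. In 37 of the 69 separate pairs copy 1 was at or above copy 2 in every live plant. Per library, 82.6 to 98.6% of the 69 pairs had the same copy on top, with a mean of 90.5% ± 3.32 (SD, n = 63) in drought and 90.7% ± 2.5 (SD, n = 62) in well-watered plants. The mock plants, which had no part in the choice, showed the same order. The 4 droughted mock plants had 61, 66, 66 and 64 of the 69 pairs in that order. The well-watered mock plants had 60, 61 and 66 of 69, and the mock library of 6045 counts had 15 of the 27 pairs in which it held any count.

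The pair with the highest summed level had nearly balanced copies. Td00002ba014364 (98002511 to 98005715, minus strand) and Td00002ba014387 (100948818 to 100952003, plus strand) are counterparts of maize Zm00001eb385900 and lie on chromosome 4 with 2943100 bp and 21 genes between them. Copy 1 had a lowest, median and highest level of 426, 641 and 1023 CPM in drought and 375.3, 645 and 1072 CPM in well-watered plants. Copy 2 had 380, 562 and 966 CPM in drought and 378, 570 and 1071 CPM in well-watered plants. The groups overlapped almost fully, and copy 1 held 46.8 to 57.1% of the pair's count in each plant. Among the closest separate pairs per kb was Td00002ba045956 on scaffold scaf_66 with Td00002ba036567 on chromosome 13 (Zm00001eb268660). Copy 1 had a median of 99.2 CPM in drought and 121 CPM in well-watered plants, and copy 2 had 97.7 and 121 CPM.

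**Figure D3:**
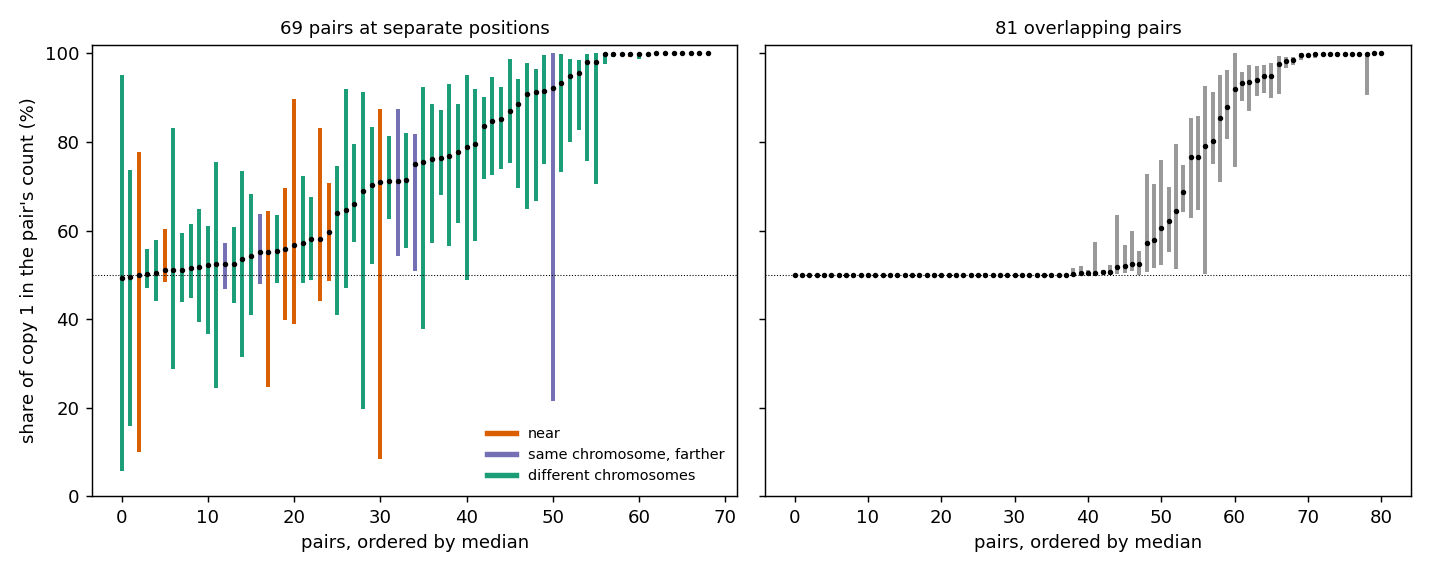
Share of copy 1 in the summed count of its pair (%) over the live plants, for the 69 separate pairs (left, coloured by position) and the 81 overlapping pairs (right), ordered by the median; bars run from the lowest to the highest plant and dots mark the median. In the overlapping pairs 48 medians lie at 55% or less, many with no visible range, whereas the separate pairs spread from 50% to 100% with wide ranges.

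A gene was called on where it reached 1 CPM in at least 90% of the live libraries and off where it did so in at most 10%. Both copies were on in 121 of the 150 pairs, and 21 pairs had an on and an off copy. Of these 21 pairs, 11 were at separate positions, all on different chromosomes, and 10 were overlapping. In a further 7 pairs an on copy stood beside a variable copy, and in 1 pair neither copy was on. In the whole class an on and an off copy occurred in 320 of 1560 separate pairs (20.5%), against 11 of 69 (15.9%) here. These shares have unlike bases, because no copy was on in 43.3% of the separate class pairs, against 1.45% here. Both copies were on in 24.1% of the separate class pairs, against 75.4% here. Relative to separate pairs with both copies on, on and off pairs were fewer here than in the class. The choice by summed level and the limit of 1 CPM rest on the same CPM, so this difference is no separate result about the pairs.

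The off copies were mostly short genes. In 10 of the 11 separate on and off pairs the off copy spanned less than 50% of the on copy, with a median of 25.2% of its span, against 2 of 52 pairs with both copies on (median 99.2%). In the class the off copy spanned a median of 35.2% of the on copy (320 pairs), against 97.1% in separate pairs with both copies on. The span is a property of the annotation, and whether a short gene model is a whole gene could not be seen from the files. None of the 11 off copies was at 0 in every live plant, but 9 never reached 1 CPM in any of them. In 4 off copies (Td00002ba006711, Td00002ba041720, Td00002ba025272 and Td00002ba043224) all counts came from 1 plant. The highest level of any off copy was 4.34 CPM, whereas the lowest level of any of their on partners was 24.6 CPM, so that the 2 kinds of copy did not overlap in any plant.

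The separate on and off pair with the highest level was Td00002ba032131 on chromosome 10 (98357698 to 98360762) and Td00002ba016345 on chromosome 4 (177350261 to 177351508), counterparts of Zm00001eb213760. The on copy had 245.2, 397 and 656 CPM (lowest, median, highest) in drought and 260, 411.5 and 907 CPM in well-watered plants. The off copy had no count in 119 of the live plants, a highest level of 0.0798 CPM, and no count in any of the 8 mock plants. The next was Td00002ba020399 on chromosome 6 with Td00002ba006711 on chromosome 2 (Zm00001eb369750). Its on copy had 141, 318.2 and 594 CPM in drought and 205, 410 and 814 CPM in well-watered plants. Its off copy had a count in only 1 plant. In these pairs nearly the whole output of the pair in crown roots came from the same copy in every plant, whatever the watering or the inoculum.

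Copies could also be followed in how they varied from plant to plant within a watering group. The ratio of the copies could be tested in 60 of the 69 separate pairs and in 75 of the 81 overlapping pairs, in which both genes passed a filter on low counts. In the 60 separate pairs the SD of the log2 ratio between plants had a median of 0.48, compared with 0.45 for copy 1 and 0.60 for copy 2 taken alone. In the overlapping pairs it was 0.0032. Both copies lay on the same side of their own medians in 68% of plants (median over the 60 pairs). This share was 86.4% in near pairs, 77.6% in pairs farther apart on a chromosome and 67.2% in pairs on different chromosomes, and it was 78.4, 72 and 62.4% in the class. The authors' counting took only the primary alignment of a read with several places and split a read among all genes it touched. Near copies shared no region and lay at least 11063 bp apart, so no read in a shared region was split between them. Values that are not whole numbers made up 36.1 to 55.6% of the values of copy 1 in near pairs, against a median of 10.5% in pairs on different chromosomes. The authors' options also named fractional counting together with reads of several places, and whether such reads were counted in part was not checked. The part of split reads, and of reads that fit both copies, in the closeness of near copies was not tested.

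Some near pairs moved strongly together. Td00002ba016598 and Td00002ba016595 (Zm00001eb111420, chromosome 5, 16594 bp apart) was the pair in which neither copy was on. Copy 1 ranged from 0.0587 over a median of 18.4 to 1235 CPM in drought and from 0.0255 over 13.9 to 669 CPM in well-watered plants. Copy 2 ranged from 0.0783 over 18.3 to 1140 CPM and from 0.0986 over 14.8 to 677 CPM. The 4 droughted mock plants had 142, 176, 1.91 and 0.999 CPM of copy 1. Both watering groups spanned the same wide range, and 5 plants held 36.3% of all live counts of copy 1, yet both copies lay on the same side of their medians in 97.6% of plants. The near pair with the highest level was different. Td00002ba014339 and Td00002ba014340 (Zm00001eb385410, chromosome 4, 36641 bp apart) had medians of 504 and 634 CPM in drought and well-watered plants for copy 1, but 0.274 and 0.399 CPM for copy 2. Copy 2, a gene of 565 bp, was at 0 in some plants of both groups and never exceeded 7.02 CPM. The near pair Td00002ba000945 and Td00002ba000946 (Zm00001eb055850, chromosome 1, 78072 bp apart) was balanced, with medians of 317 and 227.4 CPM in drought and 268.8 and 218.97 CPM in well-watered plants.

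The drought response was tested gene by gene with DESeq2 over all live plants, and a gene was called where its Benjamini-Hochberg adjusted p over all genes was below 0.05. Of the 294 genes of the pairs with an adjusted p, 80 were called (27.2%), against 22.7% of all genes tested. Of these, 36 were higher in drought (background 10.2%) and 44 lower (background 12.5%). The separate pairs gave 38 called genes (28.8% of those tested), 15 higher and 23 lower. The overlapping pairs gave 42 of 162, 21 each way, but there a locus is counted as 2 genes. Most changes were small, and only 3 of the 80 called genes changed at least 2-fold. With well-watered plants limited to the 28 libraries of 30 M counts or more, 44 genes in place of 80 were called, and 16 in place of 38 in the separate pairs. Without the CWR plants it was 49, and among the plants at or below the median plant number of their group it was 50. Most of the 28 deeper well-watered libraries came from these lower plant numbers. The depth limit and the lower plant numbers thus reuse most of the same well-watered plants and are not separate checks.

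Copies called together were called in the same direction. Both copies rose or both fell in 27 of the 150 pairs (12 rose, 15 fell), of which 10 were separate (3 rose, 7 fell) and 17 overlapping. In the class this held for 8.4% of separate pairs, against 14.5% here, and for 19.9% of overlapping pairs, against 21% here, where shared reads tie the copies together. The class includes less expressed genes, and the difference was not tested. No pair had copies called in opposite directions by DESeq2 or by edgeR (which called 24.7% of all genes it tested), whereas 9 pairs of the class did by DESeq2 (0.331%). At an unadjusted p below 0.05, 1 separate pair moved in opposite directions and 12 in the same direction, and the overlapping pairs gave 0 and 21. In 18 separate pairs only 1 copy was called, copy 1 in 13 and copy 2 in 5, and in 41 neither. A call in only 1 copy does not show that the copies differed. Of these 18 pairs, 10 had the same sign of change in the other copy, and in 7 the ratio of the copies itself changed. Over all 69 separate pairs, the fold changes of both copies had the same sign in 52, among them 9 of 9 near pairs and 39 of 55 pairs on different chromosomes. These shares were 75.4, 100 and 70.9%, against 64.2, 76.9 and 62% in the class.

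**Figure D4:**
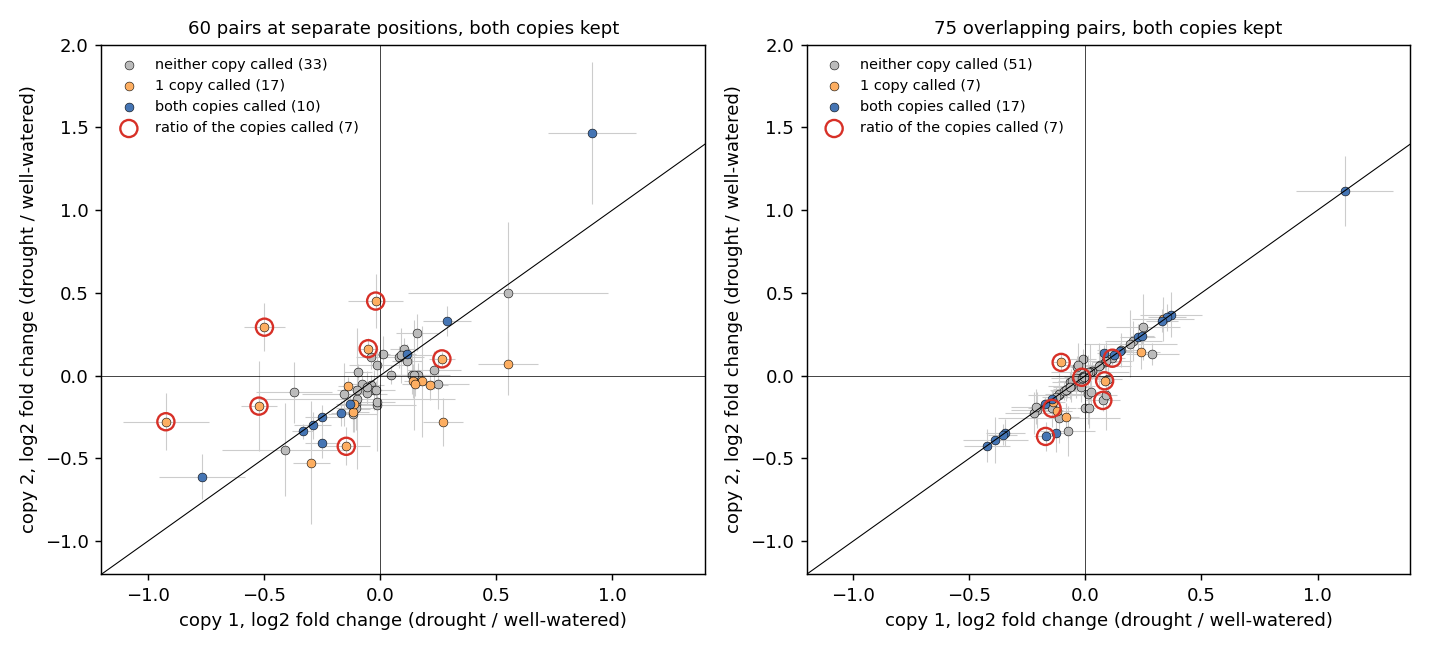
Log2 fold change of copy 2 against that of copy 1, drought over well-watered (DESeq2, error bars ± SE), for the pairs in which both copies passed the filter on low counts: 60 separate pairs (left) and 75 overlapping pairs (right); the diagonal marks equal change. Blue pairs, with both copies called, all lie in the quadrants of equal sign, and red rings mark the 7 pairs in each panel whose ratio changed.

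Among the separate pairs the strongest joint fall was that of Td00002ba041769 on chromosome 16 (19723259 to 19724481) and Td00002ba036341 on chromosome 12 (112138906 to 112139958), counterparts of Zm00001eb418060. Copy 1 had 9.55, 79.7 and 326 CPM (lowest, median, highest) in drought and 24.3, 110 and 992 CPM in well-watered plants. Copy 2 had 18.4, 79.9 and 268 CPM in drought and 27.1, 126.7 and 368.5 CPM in well-watered plants. The groups overlapped widely. Copy 1 fell by 0.77 ± 0.18 (SE) on the log2 scale (DESeq2 adjusted p = 0.000427) and copy 2 fell by 0.61 ± 0.14 (adjusted p = 0.000117), with no change of their ratio called (adjusted p = 0.99). For copy 1 the call was lost without the CWR plants (-0.44, adjusted p = 0.115) and among the plants at or below the median plant number (-0.45, adjusted p = 0.235). The next joint fall, in Td00002ba045947 on scaffold scaf_66 and Td00002ba036576 on chromosome 13 (Zm00001eb268750), was nearly the same in both copies. Copy 1 had 51.95, 72.2 and 109 CPM in drought and 53.3, 91.6 and 156 CPM in well-watered plants. Copy 2 had 52.3, 70.3 and 103 CPM in drought and 61.3, 90.03 and 153 CPM in well-watered plants. Copy 1 fell by 0.33 ± 0.05 (adjusted p = 2.71e-11) and copy 2 by 0.34 ± 0.05 (adjusted p = 9.37e-11). Against the 28 deeper well-watered libraries these values were -0.07 and -0.05, and neither was called (adjusted p = 0.368 and 0.524). Td00002ba045956 and Td00002ba036567, of the same scaffold and chromosome, both fell by 0.25 (adjusted p = 0.00507 and 0.0042). Copy 1 of Td00002ba045947 and Td00002ba036576 held 44.1 to 57.9% of the pair's count in drought and 44.9 to 55.1% in well-watered plants. Pairs with a scaffold copy were close in level in general, and the part of reads that fit both copies in these equal falls was not tested.

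The strongest joint rise was that of Td00002ba007725 and Td00002ba007721 (Zm00001eb137430), which lie 390343 bp apart on chromosome 2. Copy 1 had 34.1, 173 and 638 CPM in drought and 5.80, 75.5 and 1029 CPM in well-watered plants. Copy 2 had 0.0391, 16.3 and 555 CPM in drought and 0, 6.63 and 170 CPM in well-watered plants. Copy 2 varied over several orders of magnitude in both groups. Copy 1 rose by 0.91 ± 0.19 (SE) on the log2 scale (adjusted p = 3.00e-05) and copy 2 by 1.47 ± 0.43 (adjusted p = 0.00484). The call of copy 2 was lost against the deeper well-watered libraries (0.58, adjusted p = 0.548), among the lower plant numbers and without the SVR or the CWR plants, and 5 plants held 42.6% of its live counts. Copy 1 lost its call among the plants above the median plant number (0.73, adjusted p = 0.0553). Td00002ba025323 on chromosome 8 and Td00002ba041318 on chromosome 15 (Zm00001eb434030) rose together by less. Their medians were 97.5 and 98.9 CPM in drought against 83.7 and 77.1 CPM in well-watered plants. Copy 1 rose by 0.29 ± 0.10 (adjusted p = 0.0256) and copy 2 by 0.33 ± 0.09 (adjusted p = 0.00265), and both lost the call among the plants above the median plant number.

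Both fold changes had the same sign in 69 of the 81 overlapping pairs (85.2%, against 86.1% of such pairs in the class), and the strongest joint rise and fall among them were in pairs with nearly equal counts. Td00002ba025267 and Td00002ba025268 (Zm00001eb076550), which share 7503 bp of chromosome 8, had 21.4, 61.8 and 515 CPM each in drought and 18.2, 35.4 and 317.7 CPM each in well-watered plants. Both rose by 1.12 ± 0.21 (SE) on the log2 scale (adjusted p = 3.06e-06). The rise was 2.48 among the plants above the median plant number and turned to -0.29 (not called) among the rest of the plant numbers, so that its sign depended on the plants used. Td00002ba024639 and Td00002ba024640 (Zm00001eb253470, chromosome 7) had medians of 119 CPM in drought and 159 CPM in well-watered plants and fell by 0.42 ± 0.10 (adjusted p = 0.00033). Here the values were -0.84 in the upper and -0.02 in the lower plant numbers, and the latter was not called. Against the deeper well-watered libraries the call was lost as well (-0.20, adjusted p = 0.367). For the identical pair Td00002ba037155 and Td00002ba037156 the fall was 0.36 ± 0.06 (adjusted p = 6.13e-07). Td00002ba007215 and Td00002ba007216, the overlapping pair of the highest level, were not called (adjusted p = 0.177).

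**Figure D5:**
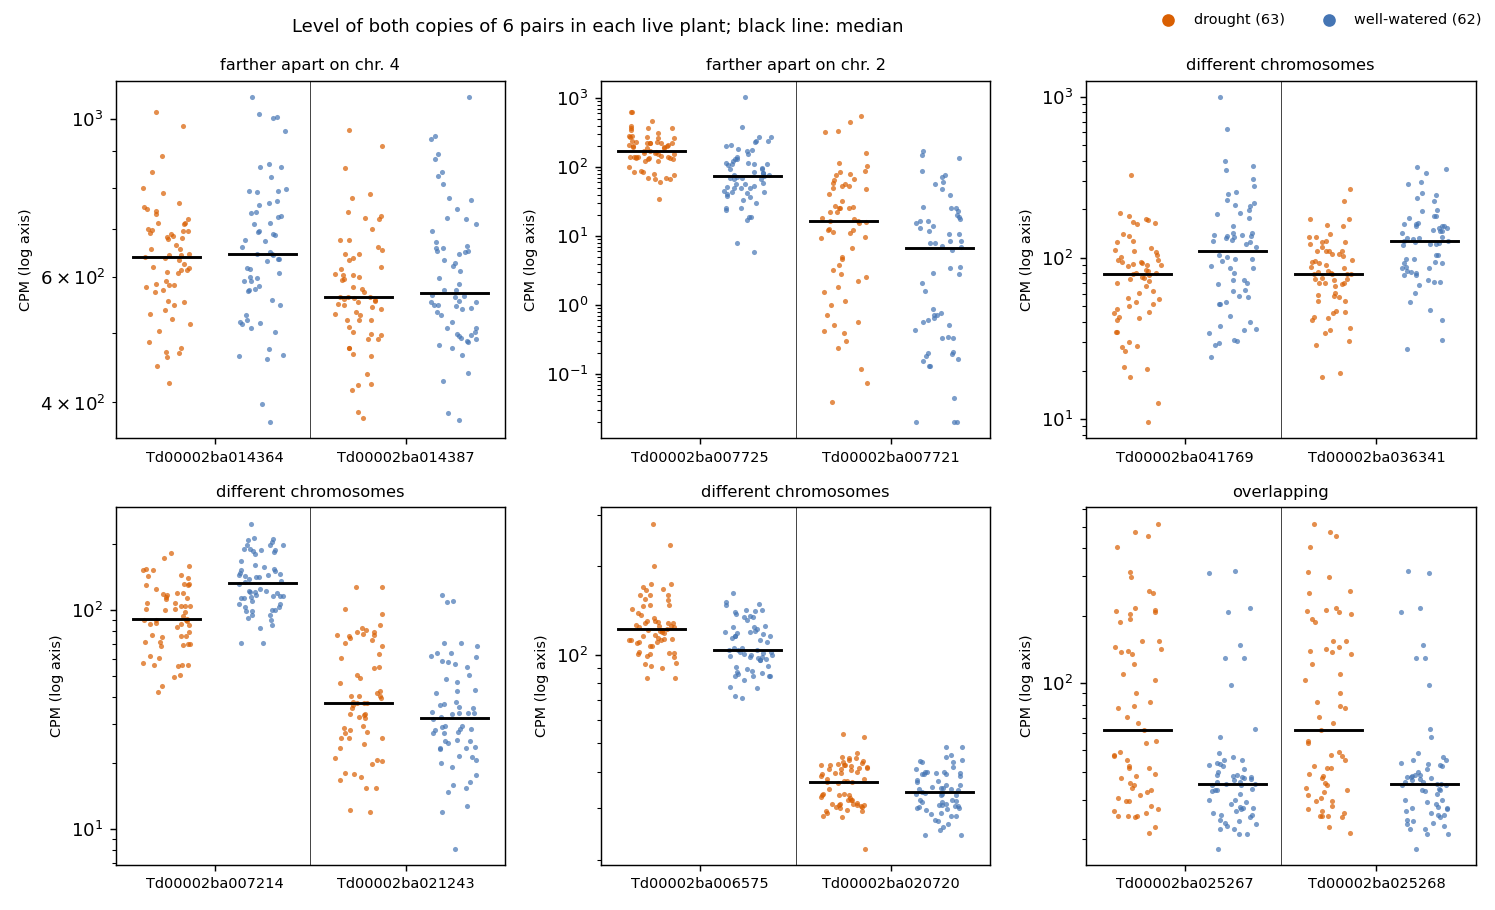
CPM (log axis) of both copies of 6 pairs in each of 63 droughted (orange) and 62 well-watered (blue) live plants; black lines are medians, and the 3 well-watered plants with less than 0.02 CPM of Td00002ba007721 are drawn at 0.02. The groups overlap in every panel, and in Td00002ba007214 and Td00002ba021243 the median of copy 1 is lower in drought while that of copy 2 is not.

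Whether drought changed the balance of the copies was tested on their log2 ratio within each plant with limma, adjusted over all 2248 groups with 2 gamagrass genes that passed the filter. The ratio changed in 14 of the pairs tested, 7 each way, against 11.3% of all groups tested. The 69 separate pairs gave 7 of the 60 tested (2 higher, 5 lower in drought), against 15.4% of separate groups overall. The overlapping pairs gave 7 of 75, against 7.16%. Both shares are near those of the groups they come from. The changes were 0.16 to 0.94 in the separate pairs and 0.0060 to 0.21 in the overlapping pairs, on the log2 scale. By distance, 0 of 9 near pairs changed by limma (2 at an unadjusted p below 0.05, and 0 by quasi-binomial regression of the counts), 1 of 5 pairs farther apart and 6 of 46 pairs on different chromosomes. All 14 changes had the same sign at all 4 sites, and 10 had the same sign in both the lower and the upper plant numbers. The 14 were called on these same plants together, so such agreement is in part built in and is no independent repeat. A quasi-binomial regression, which weights plants by their counts, called 7 of the 14 in the same direction, and 3 of the 7 in separate pairs. The count of 14 was not steady. Against the 28 deeper well-watered libraries 3 of the pairs were called, and 1 of the separate pairs. It was 29 among the plants above and 7 among those at or below the median plant number, and 4, 7 and 8 without the CWR, TRI and WEL plants.

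The clearest change of balance was in Td00002ba007214 on chromosome 2 (91346153 to 91347464) and Td00002ba021243 on chromosome 6 (75134747 to 75135781), counterparts of Zm00001eb162180. Copy 1 had 42.3, 90.7 and 182 CPM (lowest, median, highest) in drought and 71.03, 133.03 and 249 CPM in well-watered plants. Copy 2 had 11.98, 37.7 and 128.3 CPM in drought and 8.11, 32.1 and 117 CPM in well-watered plants. Copy 1 held a median of 68.8% of the pair's count under drought and 80.8% with ample water, with overlapping ranges. The log2 ratio was 1.23 ± 0.70 (SD, n = 63) in drought and 2.02 ± 0.82 (SD, n = 62) in well-watered plants, a change of -0.79 ± 0.14 (SE; limma adjusted p = 1.07e-05). It was -0.75, -0.82, -0.81 and -0.79 at CWR, WEL, SVR and TRI. Taken alone, copy 1 fell by 0.50 ± 0.09 (DESeq2 adjusted p = 5.52e-07), and copy 2 had a log2 fold change of 0.29 ± 0.15 that was not called (adjusted p = 0.144). The change of the ratio was called in 14 of 15 alternatives, the exception being the plants at or below the median plant number (-0.54, adjusted p = 0.137). Other prior counts, no filter on low counts and plant number centred within each watering group all left the change at -0.79. Such fits add little to the tally. The estimates of Td00002ba017817 and Td00002ba006575, described below, hardly moved under them either.

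A similar change, chosen for description after its values were seen, was that of Td00002ba017817 on chromosome 5 and Td00002ba011305 on chromosome 3 (Zm00001eb314130). Copy 1 had 3.48, 61.6 and 247.96 CPM in drought and 10.3, 127.01 and 490.3 CPM in well-watered plants. Copy 2 had 5.08, 33.7 and 156 CPM in drought and 2.59, 42.3 and 172 CPM in well-watered plants. The groups overlapped widely. The log2 ratio was 0.79 ± 0.92 (SD, n = 63) in drought and 1.49 ± 0.85 (SD, n = 62) in well-watered plants, a change of -0.70 ± 0.16 (SE; limma adjusted p = 0.000841), called in 13 of 15 alternatives with adjusted p from 0.000611 to 0.274. Copy 1 alone fell by 0.92 ± 0.18 (DESeq2 adjusted p = 1.42e-05).

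The largest estimated change of a ratio depended on the libraries and the test used. In Td00002ba007640 on chromosome 2 and Td00002ba035104 on chromosome 12 (Zm00001eb138100), copy 2 was an off copy with a median of 0.372 CPM in drought and 0.293 CPM in well-watered plants. Copy 1 had 33.7, 139.4 and 230 CPM in drought and 91.9, 193.2 and 356 CPM in well-watered plants, and it fell by 0.52 ± 0.08 (DESeq2 adjusted p = 1.78e-09). The ratio changed by -0.94 ± 0.32 (SE; limma adjusted p = 0.0379). It was called in 6 of 14 alternatives, was -0.04 against the deeper well-watered libraries and was 0.08 by quasi-binomial regression. Depth moved with watering in these plants (means of 52.1 M and 32.3 M counts), and its part in a ratio with so few counts of copy 2 was not tested.

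The ratio rose most in Td00002ba016274 and Td00002ba016285 (Zm00001eb402880), 218281 bp and 10 genes apart on chromosome 4. Copy 1 ranged from 59.9 to 372.6 CPM under drought and from 65.1 to 440 CPM with ample water, with medians of 69.2 and 76.8 CPM per kb of its span. These medians per kb are not on the scale of the CPM given for copy 2. Copy 1 held a median of 75.7% of the pair's count in drought and 71.7% in well-watered plants. Copy 2 had 18.2, 46.3 and 128.7 CPM in drought and 14.4, 63.04 and 214 CPM in well-watered plants. Copy 2 fell by 0.43 ± 0.11 (DESeq2 adjusted p = 0.00197), copy 1 was not called (adjusted p = 0.331), and the ratio rose by 0.25 ± 0.07 (SE; limma adjusted p = 0.00879). It was 0.56 in the upper plant numbers but -0.08 in the lower, and -0.0030 against the deeper well-watered libraries. In Td00002ba006575 on chromosome 2 and Td00002ba020720 on chromosome 6 (Zm00001eb360880), copy 1 had medians of 122 CPM in drought and 104 CPM in well-watered plants, and copy 2 had 36.96 and 34.03 CPM. The ratio rose by 0.16 ± 0.05 (limma adjusted p = 0.0361), called in 9 of 15 alternatives. Among overlapping pairs the ratio rose most in Td00002ba042347 and Td00002ba042348 (Zm00001eb349010, chromosome 16), with medians of 187.5 and 2.94 CPM in drought and 219.5 and 3.86 CPM in well-watered plants. The rise was 0.21 ± 0.07 (limma adjusted p = 0.026), and it was -0.07 in the lower plant numbers and 0.02 against the deeper well-watered libraries. The call was also lost by quasi-binomial regression (0.07, adjusted p = 0.533) and without each of the 4 sites, and it held in 7 of 14 alternatives.

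No ratio of the pairs, and none of the 2248 groups, changed with legacy, conditioning water, conditioning host or the interaction of legacy with drought by limma (background 0.0% in each). At an unadjusted p below 0.05 there were 3, 2, 7 and 1 of the pairs, against 2.98, 3.11, 3.47 and 2.27% of the 2248 groups. Quasi-binomial regression called 0 for legacy and for either conditioning factor and 1 pair for the interaction, the near pair Td00002ba016598 and Td00002ba016595 with its very uneven levels, where limma gave an interaction of -0.15 ± 0.14 (SE; unadjusted p = 0.295). Gene by gene, DESeq2 called none of the 296 genes with an adjusted p for legacy (background 0.0645%), none of 293 for conditioning host (background 0.05%) and 1 of 300 for conditioning water (background 0.0429%). At an unadjusted p below 0.05 there were 4, 15 and 12 of the 300 genes, against 3.44, 4.35 and 4.29% of all genes. That gene was Td00002ba032968, an overlapping partner of Td00002ba032969 on chromosome 11. It had medians of only 0.0382 CPM in drought and 0.0315 CPM in well-watered plants, and 54.4% of its live counts came from 1 plant, SVR well-watered replicate 1, with a further 27.5% from WEL drought replicate 11.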

How the data were processed

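The authors made poly(A) libraries from crown roots with a directional kit and sequenced paired reads. Reads were trimmed with cutadapt, aligned with HISAT2 to the gamagrass assembly, deduplicated with SAMtools and counted with featureCounts 2.0.5 over whole gene spans, without strand. The authors deposited unnormalized expected counts, in which a read that touched several genes was split equally among them, only the primary alignment of a read with several places was counted, and mates were counted separately. Whether a read with several places was also counted as a fraction was not checked. Of all cells, 13.9% were not whole (tolerance 1e-06). The orthologue groups came from OrthoFinder, per the authors' methods.

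From these counts, CPM was computed with the library total. Counts were rounded for DESeq2 1.42.0 (R 4.3.3), fitted to live plants with legacy, conditioning water, conditioning host and watering as additive terms (Wald test, Benjamini-Hochberg over all genes). The log2 ratio of the copies (TMM, prior count 1, groups kept by the expression filter of edgeR 4.0.16) was fitted with limma 3.58.1 under the same terms, with an interaction of watering and legacy in a separate fit. The DESeq2, limma and quasi-binomial fits of the watering term were tested on simulated counts with known changes, the ratios in separate pairs only. The other steps were not tested in this way. Plants are treated as independent replicates. edgeR, quasi-binomial regression, a thinning to 10 M counts, depth limits, plant number groups, leaving out each site, other CPM limits, prior counts and gaps were tried as alternatives.

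Pairs and lists were chosen with earlier results of these data known. Named pairs were the 2 of the highest sum, of the largest and smallest ratio per kb, the highest on and off pairs, the strongest called joint changes, the most positive and negative called ratio changes with 1 sign at all 4 sites, and the highest near pairs. The same rule was then applied to separate pairs alone, after values were seen, because overlapping pairs filled several places. No sequences or gene names were available from the sources used here, so none are given. Mock plants entered no test.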

Additional observations from a re-analysis of the deposited data

How the results depend on the processing

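Plant number and watering cannot be told apart, which limits every drought result. Depth was lower on average in well-watered plants, but its ranges overlapped (13.6 to 64.2 M counts in drought, 1.14 to 69.4 M in well-watered plants). No paired analysis was possible because no label links a droughted to a well-watered plant. The share of tested genes called for drought was 27.2%. It was 15.02% with only well-watered libraries of at least 30 M counts, 17.2% in plants at or below the median number and 16.8% without CWR. It was 20.4 to 39.7% under the other alternatives. These include edgeR (28.1%), the top 100 and top 300 pairs (25.6 and 32.8%) and separate pairs alone (28.8%, chosen after seeing the data). Plant number as a covariate gave 28.3%. It was centred within each watering group, so this fit cannot adjust the drought term for the separate number ranges. In separate pairs, 38 became 16 with deep well-watered libraries and 24 in the lower plant numbers. The count of changed ratios (14) was 9 after thinning, 8 with only separate pairs tested (chosen after seeing the data), 3 with deep well-watered libraries, 29 above and 7 at or below the median plant number, 4, 7 and 8 without CWR, TRI and WEL, 7 where neither copy overlaps another gene, 0 where both have less than 5% non-whole values (9 pairs), and 6 and 40 in the top 100 and top 300. In separate pairs, 7 became 1, 15, 4, 2 and 3 with deep well-watered libraries, above and at or below the median number, and without CWR and TRI. The interaction gave 1 pair by quasi-binomial regression against 0. The median absolute log2 ratio of separate pairs was 1.85 with less than 5% non-whole values, against 1.38. Reversed signs, none of them called, were 0.0800 for the ratio of Td00002ba007640 (quasi-binomial), -0.0030 and -0.077 for Td00002ba016274 (deep libraries, lower plant numbers), -0.068 for Td00002ba042347 and -0.29 for Td00002ba025267 and Td00002ba025268 (lower plant numbers). Alternatives were recomputed for 12 genes of the strongest joint drought changes, which kept direction and side of the threshold 122 times and lost the call 20 times, and for 6 ratios, with 59 and 25 times, besides the reversed signs above. The cause of these shifts was not tested.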
